A study of Oryctolagus cuniculus with 12 samples.

Results

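JCHAIN, MZB1 and DERL3 are genes of the antibody-secreting plasma cell. They were followed in 12 RNA sequencing libraries, each made from the uterine body of a different New Zealand White rabbit. Their symbols were matched in the authors' deposited comparison tables to 1 gene identifier each, ENSOCUG00000027219 for JCHAIN, ENSOCUG00000006942 for MZB1 and ENSOCUG00000026022 for DERL3. The 3 genes are 3 of the 17301 genes with a level in every library, and all 3 passed the filter on low levels that left 12794 genes for testing. Levels are FPKM, fragments scaled to transcript length and to the mapped fragments of the library, so different genes can be set side by side within a library. Comparison between libraries is approximate, since FPKM sums lay between 579986 in Control 1 and 747163 in Control 2. Rescaling between libraries was run as an alternative.

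The 4 groups held 3 animals each. The LPS+CsA animals had received 4 mg/kg of lipopolysaccharide (LPS), the cell wall component of Gram-negative bacteria that starts innate immune responses, by infusion, and 20 mg/kg of cyclosporine A (CsA), a calcineurin inhibitor that suppresses T cell activation, by intramuscular injection. The LPS animals had the LPS infusion with an injection of vehicle. The CsA animals had a saline infusion with the CsA injection, and the Control animals had saline with vehicle. Estrus and ovulation had been synchronised with hormones in all groups, tissue was sampled 3 h after treatment, and body weight was 2.56 ± 0.13 kg. The labels name both the uterus and the vagina as the site of infusion, both saline and the solvent of CsA as the injected vehicle, and do not fix the interval between infusion and injection. Each library came from 1 animal and 1 µg of total RNA.

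In mammals a plasma cell is the end stage of the B cell lineage and devotes its endoplasmic reticulum to making immunoglobulin. JCHAIN encodes the joining chain, which links immunoglobulin units into polymeric IgA and IgM and lets the polymeric immunoglobulin receptor carry them across mucosal epithelia, the uterine lining among them. MZB1 encodes a resident protein of the endoplasmic reticulum that assists the assembly and secretion of immunoglobulin in B cells and plasma cells of mice and humans. DERL3 encodes a derlin, a membrane protein that helps to move misfolded proteins out of the endoplasmic reticulum for degradation, and it is known in other secretory cells as well as in plasma cells.

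JCHAIN was the most abundant of the 3 genes in every library. Its level was 65.7, 99.6 and 56.3 FPKM in LPS+CsA animals, 14.7, 21.7 and 20.4 FPKM in LPS animals, 10.2, 38.2 and 17.1 FPKM in CsA animals, and 31.1, 31.0 and 120.4 FPKM in Control animals. All LPS+CsA libraries lay above all LPS and all CsA libraries, and all LPS libraries lay below all Control libraries. The highest single value was Control 3, which stood apart from the other Control animals, and the lowest was CsA 1. JCHAIN stood above 61.5% of all genes in CsA 1 and above 96.3% in Control 3. The mean was 73.9 ± 22.7 FPKM in LPS+CsA, 18.9 ± 3.75 in LPS, 21.8 ± 14.6 in CsA and 60.9 ± 51.6 in Control animals (SD, n = 3 each). In the order of means, LPS+CsA was followed by Control, CsA and LPS. LPS+CsA and Control overlapped, as did CsA and Control, and CsA and LPS.

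MZB1 was scarcer. Its level was 3.45, 12.1 and 5.81 FPKM in LPS+CsA animals, 1.06, 1.53 and 1.83 FPKM in LPS animals, 1.50, 3.25 and 2.32 FPKM in CsA animals, and 2.46, 4.25 and 9.39 FPKM in Control animals. The group means had the same order as those of JCHAIN, at 7.11 ± 4.45 FPKM in LPS+CsA, 1.47 ± 0.391 in LPS, 2.36 ± 0.878 in CsA and 5.37 ± 3.59 in Control animals (SD, n = 3 each). As with JCHAIN, all LPS+CsA libraries lay above all LPS and all CsA libraries, and all LPS libraries lay below all Control libraries. The highest library was LPS+CsA 2, followed by Control 3.

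DERL3 had a different order of groups. Its level was 5.01, 9.82 and 6.84 FPKM in LPS+CsA animals, 0.719, 3.25 and 2.39 FPKM in LPS animals, 3.72, 3.33 and 9.34 FPKM in CsA animals, and 8.29, 2.04 and 2.07 FPKM in Control animals. LPS+CsA and LPS did not overlap, whereas every other pair of groups with LPS+CsA or with Control overlapped. CsA and LPS were nearly tied at their border, with 3.33 FPKM in CsA 2 just above 3.25 FPKM in LPS 2. How many genes had no overlap between CsA and LPS was not counted, so nothing is read from that order. Means were 7.22 ± 2.43 FPKM in LPS+CsA, 2.12 ± 1.29 in LPS, 5.46 ± 3.36 in CsA and 4.13 ± 3.60 in Control animals (SD, n = 3 each). In Control 3, the library with the most JCHAIN, DERL3 was at 2.07 FPKM, and in CsA 3, with JCHAIN at 17.1 FPKM, DERL3 was at 9.34 FPKM.

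**Figure D1:**
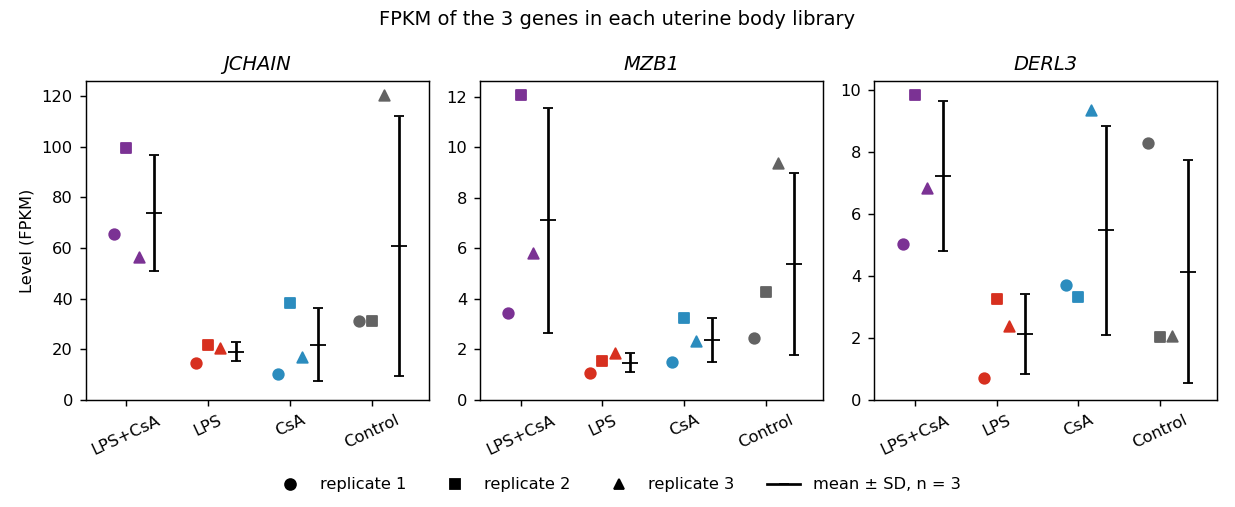
Level of JCHAIN, MZB1 and DERL3 in FPKM (vertical axes, linear, from 0) in each library of the LPS+CsA, LPS, CsA and Control groups; symbols mark the replicate number and bars the mean ± SD of 3 animals. JCHAIN and MZB1 were lowest in LPS and CsA animals with 1 high Control animal, while DERL3 had 1 high animal in CsA (9.34 FPKM) and 1 in Control (8.29 FPKM).

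The reads behind these levels were few for MZB1 and DERL3. The authors' deposited table of LPS+CsA over LPS gives 956, 1379 and 816 counts for JCHAIN in LPS+CsA animals and 214, 343 and 334 in LPS animals. For MZB1 it gives 24, 89 and 45 counts in LPS+CsA and 7, 12 and 13 in LPS animals. For DERL3 it gives 38, 83 and 58 counts in LPS+CsA and 5, 27 and 19 in LPS animals. In Control animals, the authors' deposited table of LPS over Control gives 531, 609 and 1896 counts for JCHAIN and 20, 28 and 72 for MZB1. No label or header says if the authors scaled these counts, and no library total was used, so the precision of a single level is not known.

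All 3 genes varied more between animals of the same group than most genes did. The standard deviation within groups, on the scale of log2(FPKM + 1), was 0.76 for JCHAIN, 0.60 for MZB1 and 0.70 for DERL3, against a median of 0.23 over the genes tested. It was larger than that of 95.6%, 92.1% and 94.6% of the tested genes for JCHAIN, MZB1 and DERL3, in that order. The 4 groups held 63.8% of the squared variation of JCHAIN, 62.0% of that of MZB1 and 46.7% of that of DERL3, where the median tested gene had 30.1%. The authors had listed all 3 genes for differences between groups of these libraries. Shares above that median therefore describe that choice, and nothing is read from them. In bulk tissue, fewer cells of a type and less RNA per cell cannot be told apart, which holds for every level given here.

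The comparisons were fitted with limma over all 12 libraries and 12794 genes. A fold or difference below is on the log2(FPKM + 1) scale, which understates changes of genes near 1 FPKM. At an adjusted p under 0.05, limma called 0 genes, or 0%, in each of the 6 comparisons, so none of the 3 genes passed. At an unadjusted p under 0.05, limma gave 839 genes in LPS against Control, 1031 in LPS+CsA against LPS, 594 in CsA against Control, 617 in LPS+CsA against Control, 892 in LPS+CsA against CsA and 392 in the interaction. LPS against Control and LPS+CsA against LPS had already chosen the genes: a symbol exists here only because the authors listed the gene for LPS over Control or for LPS+CsA over LPS, and values in those comparisons describe that choice. Control libraries, LPS libraries and the others are shared between comparisons, so the other comparisons are not free of that choice.

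LPS lay below Control for all 3 genes. JCHAIN differed by -1.35 ± 0.54 (log2 difference ± SE), with an adjusted p of 0.750 by limma, MZB1 by -1.23 ± 0.44 with an adjusted p of 0.750 by limma, and DERL3 by -0.60 ± 0.50 with an adjusted p of 0.875 by limma. JCHAIN and MZB1 had an unadjusted p under 0.05, at 0.0301 and 0.0170 by limma, as did 2.45% of all tested genes in the same direction. They were also without overlap between the groups, as were 5.24% of all tested genes in that direction. Much of the size came from 1 animal: without Control 3, JCHAIN differed by -0.71 and MZB1 by -0.80. For DERL3 it was another animal, since without Control 1 the difference was -0.07. The authors' deposited table lists JCHAIN at a log2 fold change of -1.78 (p = 1.94e-05) and MZB1 at -1.90 (p = 0.00410) for LPS over Control, and has no row for DERL3. The authors' p-values, here and below, come from their own analysis and not from limma. A header names edgeR for their fold changes. Their p-values are therefore not comparable with those of limma.

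LPS+CsA lay above LPS for all 3 genes. The difference was 1.89 ± 0.54 for JCHAIN (adjusted p = 0.587 by limma), 1.58 ± 0.44 for MZB1 (adjusted p = 0.587 by limma) and 1.45 ± 0.50 for DERL3 (adjusted p = 0.596 by limma). All 3 genes had an unadjusted p under 0.05, as did 4.85% of the tested genes in the same direction, and all 3 were without overlap, as were 8.81% of the tested genes. Leaving out any 1 library kept the differences between 1.65 and 2.06 for JCHAIN, between 1.17 and 1.94 for MZB1 and between 1.07 and 1.73 for DERL3. The unadjusted p of DERL3 by limma was 0.0682 without LPS 1 and 0.0558 without LPS+CsA 2, above 0.05 in both. The authors' deposited table lists log2 fold changes for LPS+CsA over LPS of 1.83 for JCHAIN (p = 3.71e-11), 2.29 for MZB1 (p = 0.000466) and 1.81 for DERL3 (p = 0.00483).

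CsA against Control did not itself choose the genes, but it reuses the Control libraries of LPS over Control, for which the authors listed JCHAIN and MZB1. Its values for JCHAIN and MZB1 are therefore not free of that choice. Signs differed among the 3 genes. JCHAIN was lower in CsA animals by a log2 difference of -1.33 ± 0.54 (adjusted p = 0.932 by limma) and MZB1 by -0.81 ± 0.44 (adjusted p = 0.932 by limma), while DERL3 was higher by 0.43 ± 0.50 (adjusted p = 0.955 by limma). JCHAIN alone of the 3 had an unadjusted p under 0.05, at 0.0322 by limma, as did 1.71% of all tested genes in that direction. All 3 genes overlapped between the groups: CsA 2, at 38.2 FPKM, was above Control 1 and Control 2 for JCHAIN. Without Control 3 the difference was -0.69 for JCHAIN and -0.38 for MZB1. For DERL3 the difference was 0.03 without CsA 3 and 0.96 without Control 1, so that 1 animal in either group set its size.

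LPS+CsA against Control gave the smallest differences for JCHAIN and MZB1. JCHAIN differed by 0.54 ± 0.54, MZB1 by 0.36 ± 0.44 and DERL3 by 0.85 ± 0.50, with adjusted p of 0.960, 0.963 and 0.941 by limma. None of the 3 had an unadjusted p under 0.05, where 3.57% of the tested genes did with higher levels in LPS+CsA. The 95% intervals ran from -0.65 to 1.73 for JCHAIN, from -0.60 to 1.32 for MZB1 and from -0.26 to 1.96 for DERL3, so these data do not show equal levels. MZB1 had no stable sign: without LPS+CsA 2 its difference was -0.06, and without Control 3 it was 0.78. JCHAIN differed by 0.22 without Control 2 and by 1.18 without Control 3.

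LPS+CsA against CsA, the LPS comparison among animals given CsA, separated JCHAIN and MZB1 in the direction opposite to that of LPS against Control. JCHAIN differed by 1.87 ± 0.54 (adjusted p = 0.701 by limma), MZB1 by 1.16 ± 0.44 (adjusted p = 0.710 by limma) and DERL3 by 0.42 ± 0.50 (adjusted p = 0.840 by limma). JCHAIN and MZB1 had an unadjusted p under 0.05, at 0.00546 and 0.0220 by limma, as did 4.19% of all tested genes in that direction, and were without overlap, as were 6.51%. With LPS below Control and LPS+CsA above CsA, both without overlap, JCHAIN and MZB1 were among 28 genes, or 0.219% of those tested. Nothing is read from that share, because the authors had listed both genes as lower in LPS than in Control and higher in LPS+CsA than in LPS. DERL3 was not among these 28 genes, since its groups overlapped in both comparisons. Without LPS+CsA 2, the MZB1 difference of LPS+CsA against CsA was 0.75 (unadjusted p = 0.104 by limma). That of DERL3 was 0.19 without CsA 2 and 0.82 without CsA 3.

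The interaction asks whether the LPS difference depended on CsA, as the difference of LPS+CsA against CsA minus that of LPS against Control. It was 3.21 ± 0.76 for JCHAIN, 2.39 ± 0.62 for MZB1 and 1.02 ± 0.71 for DERL3 on the log2 scale. The unadjusted p was 0.00151 for JCHAIN and 0.00264 for MZB1 by limma, as 1.75% of all tested genes had a p under 0.05 with a positive interaction, and 0.178 for DERL3. None passed adjustment over all genes, with adjusted p of 0.914, 1.00 and 1.00 by limma. The interaction contains LPS against Control, which had chosen JCHAIN and MZB1, and LPS+CsA against LPS, which had chosen all 3 genes. Its size and p therefore describe that choice and are no independent support. Leaving out any 1 library kept it between 2.57 and 3.70 for JCHAIN and between 1.96 and 2.75 for MZB1, but between 0.49, without Control 1, and 1.42 for DERL3.

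**Figure D2:**
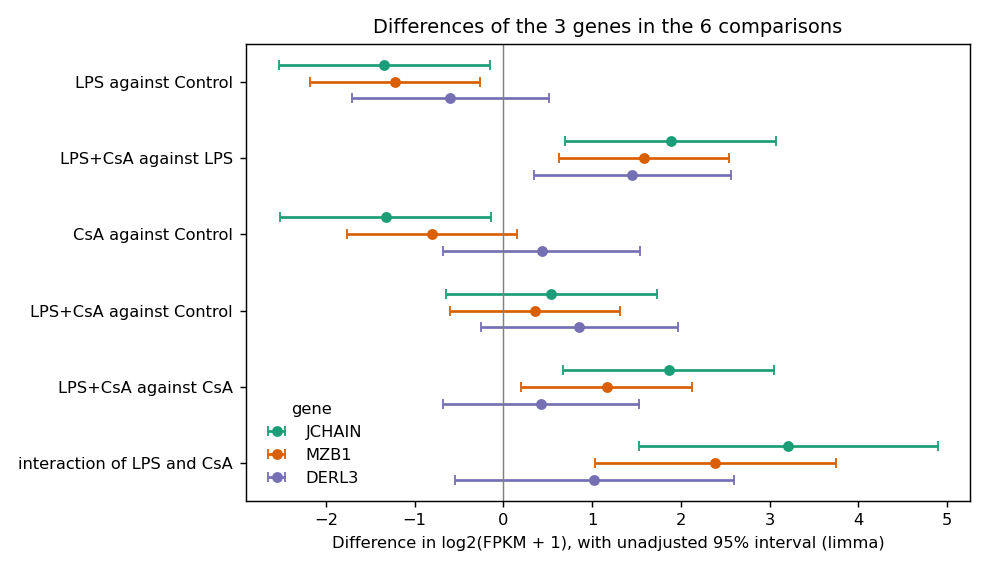
Difference in log2(FPKM + 1) of JCHAIN, MZB1 and DERL3 (horizontal axis, linear) in each of the 6 comparisons, with points for limma's estimate and bars for its unadjusted 95% interval. JCHAIN and MZB1 lay below 0 in LPS against Control and in CsA against Control and above 0 elsewhere, with interactions of 3.21 and 2.39. The DERL3 interval reached 0 in all comparisons except LPS+CsA against LPS. The intervals of JCHAIN and MZB1 reached 0 in LPS+CsA against Control, and that of MZB1 also did in CsA against Control.

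JCHAIN and MZB1 varied together from animal to animal, and DERL3 had lower correlations with both. Over the 12 libraries, Pearson's r of log2(FPKM + 1) between JCHAIN and MZB1 was 0.91 (permutation p = 4e-05, adjusted over 3 pairs 0.00012) and Spearman's rho was 0.90 (permutation p = 0.00016, adjusted 0.00048), two-sided with 100000 resamples. Without Control 3 and LPS+CsA 2, the libraries farthest from the median of JCHAIN, r was 0.83 (permutation p = 0.00444). Taken as deviations from the group means, r was 0.81, so the animals of a group that were high in JCHAIN were mostly high in MZB1. The permutation exchanged libraries across the 4 groups, and the authors had listed both genes for the same comparisons, so the pooled p also carries the group differences behind that choice. The r of deviations does not contain the group means and was given no p.

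For JCHAIN and DERL3, r was 0.26 (permutation p = 0.410, adjusted 0.410) and rho was 0.24 (permutation p = 0.441, adjusted 0.441). For MZB1 and DERL3, r was 0.36 (permutation p = 0.255, adjusted 0.383) and rho was 0.31 (permutation p = 0.315, adjusted 0.441). Without Control 3 and LPS+CsA 2, r was 0.33 (permutation p = 0.344) for JCHAIN and DERL3 and 0.43 (permutation p = 0.211) for MZB1 and DERL3. Each of these libraries moved r in an opposite direction: without Control 3 alone it was 0.49 (permutation p = 0.120) for JCHAIN and DERL3 and 0.57 (permutation p = 0.0545) for MZB1 and DERL3. Without LPS+CsA 2 alone it was 0.09 for JCHAIN and DERL3 and 0.13 for MZB1 and DERL3, and without LPS 1 alone it was 0.09 and 0.16 for these pairs. As deviations from the group means, r was -0.15 for JCHAIN and DERL3 and -0.08 for MZB1 and DERL3.

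The ratios of levels show the same in plainer form. MZB1 amounted to between 5.26% and 14.7% of the JCHAIN level, with a median of 8.76%, a spread of 2.79-fold over the 12 libraries. DERL3 amounted to 1.72% of the JCHAIN level in Control 3 and to 54.6% in CsA 3, with a median of 10.8%, a spread of 31.8-fold. JCHAIN itself spread 11.8-fold.

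**Figure D3:**
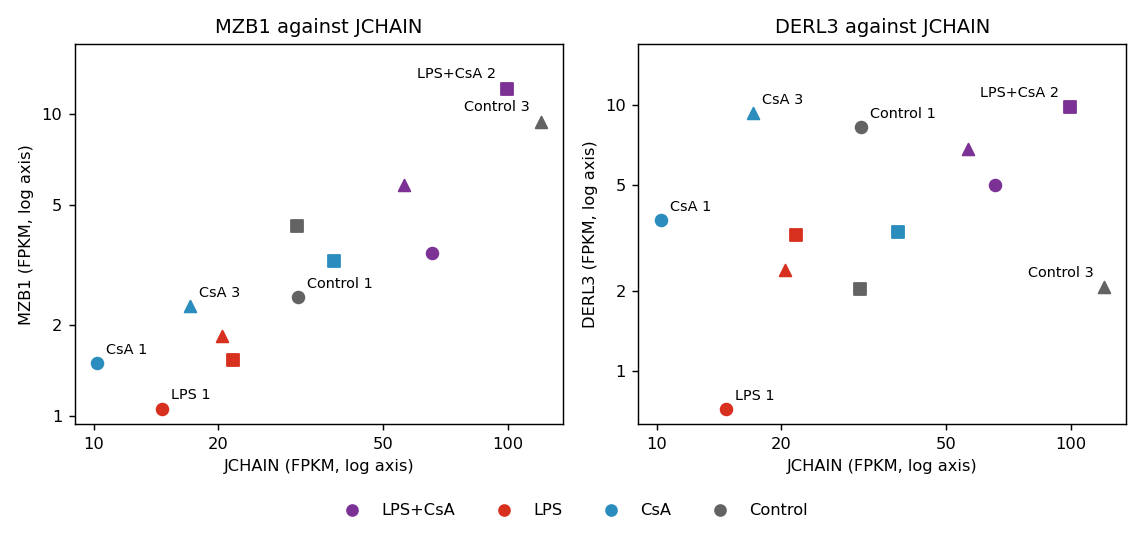
MZB1 (left) and DERL3 (right) against JCHAIN in FPKM, on logarithmic axes, 1 point per library, coloured by group and shaped by replicate number as in the plot of levels. MZB1 followed JCHAIN (r = 0.91), and DERL3 had low values beside high JCHAIN in Control 3 and high values beside low JCHAIN in CsA 3 (r = 0.26).

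Among all 12792 other tested genes, 2 had an r with JCHAIN at least as high as that of MZB1, and 0 had an r with MZB1 at least as high as that of JCHAIN. By contrast 2303 genes had an r with JCHAIN, and 1460 had an r with MZB1, at least as high as that of DERL3. These are correlations over the 12 libraries, which share group structure, and are given as a description without p.

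Of the genes with a symbol, TTC39C (r = 0.92), SEPT1 (r = 0.89), FRMPD3 (r = 0.83), IGHM (r = 0.82) and GRIN2C (r = 0.81) were most like JCHAIN. IGHM encodes the constant region of the immunoglobulin mu heavy chain, SEPT1 a septin, a GTP-binding protein of the cytoskeleton, and GRIN2C a subunit of the NMDA receptor. The SEPT1 symbol was deposited as a number and was read from the authors' pathway annotation. For MZB1 the 5 were IGHM (r = 0.87), TTC39C (r = 0.84), CCDC170 (r = 0.83), SEPT1 (r = 0.77) and GRIN2C (r = 0.75), so that 4 of 5 were also on the list of JCHAIN.

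DERL3 shared none of these. Its 5 were ASS1 (r = 0.76), an enzyme that makes argininosuccinate, TMEM114 (r = 0.76), WIF1 (r = 0.74), a secreted inhibitor of Wnt ligands, TMEM139 (r = 0.72) and CORIN (r = 0.71), a protease known for processing natriuretic peptide in the heart. WIF1 averaged 46.0 ± 15.4 FPKM in LPS+CsA, 16.1 ± 12.5 in LPS, 36.9 ± 29.7 in CsA and 28.0 ± 22.6 in Control animals (SD, n = 3 each), the same order of means as DERL3. TTC39C, most like JCHAIN among the genes with a symbol other than the 3 described, averaged 9.82 ± 1.68 FPKM in LPS+CsA, 4.93 ± 0.652 in LPS, 4.52 ± 0.709 in CsA and 7.51 ± 1.74 in Control animals (SD, n = 3 each). All of these symbols come from the authors' tables, so the most similar genes were sought among genes listed for the same comparisons.

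The heavy and light chains of immunoglobulin are what a plasma cell makes, and the deposited annotation names 11 identifiers as such immunoglobulin chains. Their summed level was 166.8, 211.2 and 143.4 FPKM in LPS+CsA animals, 31.7, 38.8 and 46.1 FPKM in LPS animals, 17.9, 78.5 and 58.3 FPKM in CsA animals, and 74.6, 82.6 and 225.9 FPKM in Control animals. As for JCHAIN, the highest library was Control 3 and the lowest was CsA 1. LPS+CsA did not overlap with LPS or CsA, LPS did not overlap with Control, and CsA 2 lay above Control 1. These loci belong to a multigene family whose reads can be split between copies, and the authors had listed them for the same comparisons, so single loci are uncertain.

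The 11 loci followed JCHAIN with r between 0.55 and 0.94 (median 0.82) and MZB1 with r between 0.67 and 0.87 (median 0.75). With DERL3 the r lay between -0.14 and 0.50 (median 0.30). The 4 loci of highest mean level showed how unevenly single chains were represented in single animals. ENSOCUG00000024526, annotated as a kappa1 light chain, had 20.7, 76.7 and 12.3 FPKM in LPS+CsA, 7.21, 2.33 and 9.75 FPKM in LPS, 0.586, 18.0 and 10.8 FPKM in CsA, and 7.45, 10.96 and 19.5 FPKM in Control animals. Its highest library was LPS+CsA 2, which also led for MZB1.

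ENSOCUG00000023169, annotated as the variable region of an IgM heavy chain, had 41.7, 16.5 and 31.2 FPKM in LPS+CsA, 3.41, 6.20 and 5.07 FPKM in LPS, 2.86, 5.91 and 2.63 FPKM in CsA, and 8.46, 8.19 and 49.2 FPKM in Control animals. ENSOCUG00000027394, a kappa chain of the bas type, had 3.49, 16.2 and 17.7 FPKM in LPS+CsA, 1.46, 6.21 and 7.28 FPKM in LPS, 3.07, 5.38 and 7.38 FPKM in CsA, and 13.4, 14.7 and 40.8 FPKM in Control animals. ENSOCUG00000022491, a heavy chain variable region, had 36.8, 15.7 and 15.6 FPKM in LPS+CsA, 1.63, 6.42 and 4.51 FPKM in LPS, 1.72, 4.98 and 8.28 FPKM in CsA, and 8.79, 6.78 and 20.2 FPKM in Control animals. Control 3 was the highest Control library for all 4 of these loci, as it was for JCHAIN and MZB1.

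In the comparison of CsA against Control, 10 of the 11 loci had a difference below 0, with a median of -1.22, beside -1.33 for JCHAIN, -0.81 for MZB1 and 0.43 for DERL3. In LPS+CsA against CsA, all 11 lay above 0, with a median of 1.36. In LPS against Control all 11 lay below 0 (median -1.21), and in LPS+CsA against LPS all 11 lay above 0 (median 1.44). The interaction was above 0 for all 11 (median 2.91), each with an unadjusted p under 0.05 by limma. A positive interaction with such a p was found for 1.75% of all tested genes. Over all tested genes the median interaction was -0.02, and the medians of the other 4 comparisons, in the order given, were 0.03, 0.01, 0.02 and 0.01. The loci are annotated here only through the authors' listing for LPS over Control or LPS+CsA over LPS, which the interaction contains. These counts describe that listing and are no independent support. None of the loci passed adjustment over all genes by limma.

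**Figure D4:**
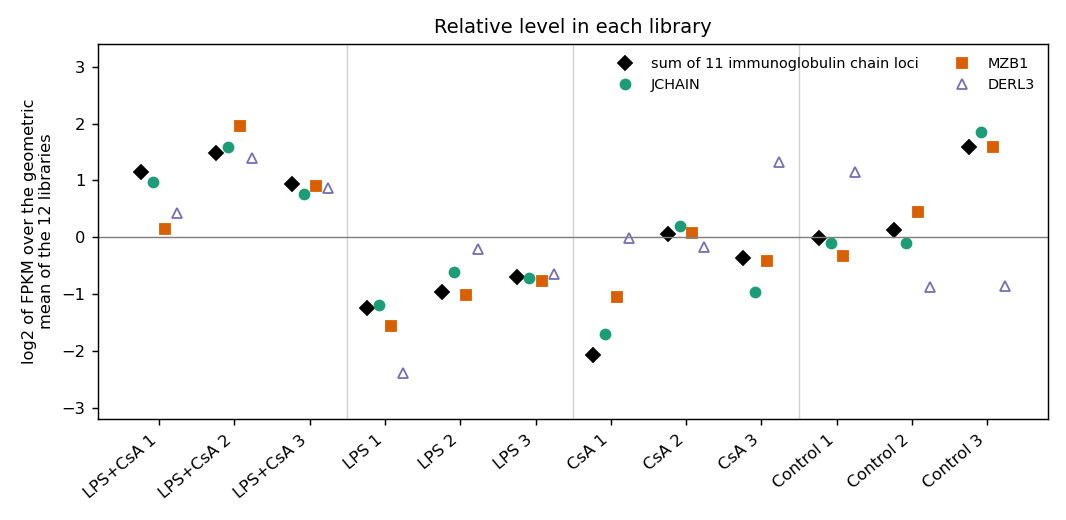
Level of JCHAIN, MZB1, DERL3 and the sum of the 11 immunoglobulin chain loci in each library, as log2 of FPKM over the geometric mean of the 12 libraries (vertical axis; 0 is that mean). JCHAIN, MZB1 and the summed loci moved together in most libraries, and in Control 3 the summed loci were at 1.59, JCHAIN at 1.85 and MZB1 at 1.60 while DERL3 was at -0.86.

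Of a list of 21 plasma cell markers, 4 had a symbol in the authors' tables, namely the 3 genes described and POU2AF1, a B cell coactivator of octamer-binding factors that plasma cells keep. POU2AF1 (ENSOCUG00000012566) was below the filter and was not tested. Its level was 0.479, 1.32 and 0.729 FPKM in LPS+CsA, 0.266, 0.136 and 0.242 FPKM in LPS, 0.145, 0.304 and 0.0854 FPKM in CsA, and 0.634, 0.287 and 0.749 FPKM in Control animals. Its r was 0.84 with JCHAIN, 0.85 with MZB1 and 0.39 with DERL3 over the 12 libraries. The authors' deposited table lists it at a log2 fold change of 1.94 for LPS+CsA over LPS (p = 0.00233), on 24, 67 and 36 counts in LPS+CsA and 14, 7 and 12 counts in LPS animals.

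The label of plasma cell genes could not be checked on genes outside the authors' lists. None of 19 B cell markers, 38 genes of folding and secretion in the endoplasmic reticulum, or 3 genes of polymeric immunoglobulin transport had a symbol, so plasma cells and other B lineage cells cannot be told apart here, and the folding machinery around DERL3 is not analysed here. POU2AF1 and the median of the immunoglobulin loci had higher r with JCHAIN and MZB1 than with DERL3, at the values given. These r carry the group differences behind the authors' listing, so they do not check the label. None of 8 smooth muscle, 11 stromal and 7 endothelial markers had a symbol either, so the uterine tissue label was not checked.

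Markers of other cell types moved with these genes in part. Of 18 T cell markers 1 had a symbol, TRAC, the constant region of the T cell receptor alpha chain, with levels of 5.36, 5.99 and 2.29 FPKM in LPS+CsA, 0.655, 0.948 and 1.13 FPKM in LPS, 3.18, 3.99 and 1.99 FPKM in CsA, and 2.54, 2.59 and 4.06 FPKM in Control animals. It was low in LPS animals, as JCHAIN was, but its difference in CsA against Control was -0.01 ± 0.30. Its interaction was 1.49 ± 0.42 (unadjusted p = 0.00465 by limma). Its r was 0.69 with JCHAIN, 0.72 with MZB1 and 0.47 with DERL3. Of 10 erythroid markers 2 had a symbol, HBB2 and ALAS2, and their sum lay between 120.3 and 339.4 FPKM in LPS+CsA, between 109.7 and 128.5 FPKM in LPS, between 140.1 and 202.3 FPKM in CsA, and between 210.7 and 379.6 FPKM in Control animals. The interaction was 1.45 ± 0.49 for HBB2 and 1.23 ± 0.39 for ALAS2 (unadjusted p = 0.0127 and 0.00914 by limma). Their r over the libraries was lower than that of TRAC. It was 0.25 with JCHAIN, 0.15 with MZB1 and 0.37 with DERL3 for HBB2. For ALAS2 it was 0.35, 0.17 and 0.22 in the same order. The part of T cell or blood content in the results was not tested.

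Of 12 neutrophil markers 3 had a symbol, S100A8, S100A9 and S100A12, and their sum lay between 14.0 and 526.6 FPKM in LPS+CsA, between 60.2 and 73.3 FPKM in LPS, between 16.7 and 398.8 FPKM in CsA, and between 8.68 and 276.5 FPKM in Control animals, so that the range of the LPS group lay within that of every other group. Of 12 epithelial markers SOX9 alone had a symbol, at between 4.57 and 7.27 FPKM in LPS+CsA, between 1.98 and 2.96 FPKM in LPS, between 2.39 and 4.56 FPKM in CsA, and between 3.35 and 4.09 FPKM in Control animals. SOX9, a transcription factor of glandular epithelium, thus had the same order as JCHAIN and MZB1, with LPS below Control and LPS+CsA above CsA and no overlap in either, as had 0.219% of the tested genes. LPS+CsA and CsA were nearly tied at their border, with 4.57 FPKM in LPS+CsA 2 and 4.56 FPKM in CsA 3. Its interaction was 1.13 ± 0.30 (unadjusted p = 0.00294 by limma), and its r was 0.58 with JCHAIN, 0.57 with MZB1 and 0.64 with DERL3. Of 10 markers of multiciliated epithelium 4 had a symbol, with C20orf85 listed at 0 in 4 libraries, and their sum lay between 4.68 and 8.83 FPKM in LPS+CsA, between 2.19 and 48.0 FPKM in LPS, between 0.319 and 4.23 FPKM in CsA, and between 0.0571 and 1.98 FPKM in Control animals. The r of S100A8, S100A9 and S100A12 lay between 0.02 and 0.09 with JCHAIN and MZB1 and between -0.004 and 0.08 with DERL3. The multiciliated markers FOXJ1, CDC20B, C20orf85 and MCIDAS had r between -0.29 and -0.02 with JCHAIN and MZB1. With DERL3 their r lay between -0.03 and 0.21. None of 9 natural killer and 12 macrophage markers had a symbol. The part of these cell types in the results was not tested.

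Of 16 genes for the homing and survival of plasma cells, 2 had a symbol, the chemokines CXCL10 and CXCL11, which attract cells that bear CXCR3. CXCL10 averaged 34.2 ± 27.1 FPKM in LPS+CsA, 4.67 ± 4.72 in LPS, 7.89 ± 7.14 in CsA and 19.2 ± 26.7 in Control animals (SD, n = 3 each). CXCL11 averaged 2.85 ± 0.680 FPKM in LPS+CsA, 0.996 ± 0.796 in LPS, 1.77 ± 1.28 in CsA and 1.69 ± 1.72 in Control animals (SD, n = 3 each). The r of CXCL10 was 0.67 with JCHAIN, 0.67 with MZB1 and 0.26 with DERL3, and that of CXCL11 was 0.67, 0.63 and 0.35 in the same order. Neither passed adjustment in any comparison by limma.

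The libraries were compared on the measures that the files allow. The array weights fitted by limma, used only as an alternative, ran from 0.50 for CsA 2 to 2.17 for Control 3. FPKM sums lay between 579986 and 747163, between 11945 and 12398 genes reached 1 FPKM, and the 10 most abundant genes held between 15.4% and 20.3% of the sum.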

How the data were processed

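RNA of 12 uterine bodies was sequenced, 3 animals in each of 4 groups taken from the labels. Per the submitters' processing notes, which name TopHat2, Cufflinks and Cuffnorm, the authors deposited FPKM per gene and library; no version, build or annotation is named in the sources used here. Per the file headers, the authors' comparison tables also hold read counts, log2 fold changes and p-values for 437 listed identifiers, 306 with a symbol, which were copied and not used in any test. A header names edgeR for the fold changes. All 54 FPKM values of the 3 genes in those tables equalled the per-library files (relative tolerance 0.0001).

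Computed here were log2(FPKM + 1), a filter of at least 1 FPKM in at least 3 of 12 libraries, and limma 3.58.1 (R 4.3.3) with a mean per group, a variance trend, two-sided tests and Benjamini-Hochberg adjustment at 5% over all tested genes. The test was checked on simulated data. Correlations used permutation tests in Python 3.11.15 with numpy 2.4.6, pandas 2.3.3 and scipy 1.17.1, and figures matplotlib 3.10.9. Read depth is unknown, so no counting interval is given.

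The 3 genes and all marker lists were chosen with earlier results of these data known. Named were the 3 genes, listed markers with a symbol, the 4 immunoglobulin loci of highest mean FPKM and the 5 symbols of highest r with each gene. Alternatives were another pseudocount, other filters, rescaling, quantile normalization, the compared groups alone, no trend, robust variances, array weights, a replicate block and leaving out each library.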

Additional observations from a re-analysis of the deposited data

Results flagged for a closer look

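For JCHAIN, the estimated differences of LPS+CsA against CsA and of LPS against Control had opposite signs. All LPS+CsA libraries lay above all CsA libraries and all LPS libraries lay below all Control libraries, and the interaction was 3.21 ± 0.76 on the log2(FPKM + 1) scale (unadjusted p = 0.00151, adjusted p = 0.914 by limma). The same held for MZB1, with an interaction of 2.39 ± 0.62 (unadjusted p = 0.00264, adjusted p = 1.00 by limma). Neither passed adjustment over all genes. The authors had listed both genes for LPS over Control and for LPS+CsA over LPS, which the interaction contains, so these values describe that choice and are no independent support. The pattern was not particular to JCHAIN and MZB1: it was without overlap in 28 of the 12794 tested genes, the epithelial marker SOX9 among them (interaction 1.13 ± 0.30). For SOX9 the LPS+CsA and CsA groups were nearly tied, at 4.57 FPKM in LPS+CsA 2 and 4.56 FPKM in CsA 3. Positive interactions were also found for the T cell marker TRAC (1.49 ± 0.42), the erythroid markers HBB2 (1.45 ± 0.49) and ALAS2 (1.23 ± 0.39), and all 11 immunoglobulin loci (median 2.91), none past adjustment by limma. Interactions lay below 0 for the multiciliated markers FOXJ1 (-0.60 ± 0.85), CDC20B (-0.80 ± 0.86) and C20orf85 (-1.32 ± 1.05). Among neutrophil markers they were -0.34 ± 2.15 for S100A8, 0.23 ± 1.94 for S100A9 and -0.09 ± 1.88 for S100A12. All these genes are named through the authors' listing, so their interactions describe that choice too. The interaction of DERL3, 1.02 ± 0.71, had no such separation.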

How the results depend on the processing

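The differences of the 3 genes were recomputed under each alternative, 381 values in all, and 378 kept their sign and their side of the threshold. The reported adjusted p were 0.587 or higher by limma, so keeping that side says little. Unadjusted p moved more. Without Control 3 it was 0.140 for JCHAIN and 0.0817 for MZB1 in LPS against Control by limma. For JCHAIN in CsA against Control it was then 0.150 by limma. The 3 that turned sign were MZB1 in LPS+CsA against Control: -0.0086 with array weights, -0.0074 without Control 1 and -0.059 without LPS+CsA 2, in a range of -0.059 to 0.78 over libraries left out. With a mean of at least 5 FPKM, MZB1 and DERL3 were not tested. No alternative gave any of the 3 genes an adjusted p under 0.05 by limma. The number of genes called over all genes, 0 as reported, was 2 without a filter in LPS against Control and in LPS+CsA against LPS. It was 1 on the compared groups alone in LPS+CsA against LPS, LPS+CsA against Control and LPS+CsA against CsA. Leaving out 1 library gave 0 to 1 calls in every comparison except CsA against Control, which had 0 to 4, the 4 without CsA 1. As deviations from group means, r was 0.81 for JCHAIN and MZB1, -0.15 for JCHAIN and DERL3 and -0.078 for MZB1 and DERL3; the cause was not tested. Leaving out 1 library gave r of 0.88 to 0.94, 0.09 to 0.49 and 0.13 to 0.57 for these pairs. The labels do not say that replicate numbers pair the animals. Deviations of same-numbered libraries correlated at -0.09 to 0.42 (median 0.09) and others at -0.35 to 0.28 (median -0.06), so the numbers were not taken as pairs although the first were higher on the median. With a replicate block, the interaction of JCHAIN had an adjusted p of 0.637 and that of MZB1 0.637 by limma, and no call changed. The SE of MZB1 was 0.33 with the block and 0.44 without it, and its unadjusted p in CsA against Control was 0.0356 with the block and 0.0912 without. Unknown read depth limits MZB1 and DERL3 most.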

Other observations

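Among the 11 immunoglobulin loci, 1 had a difference above 0 in CsA against Control, ENSOCUG00000028063, annotated as a constant region of the alpha heavy chain of IgA, and it was chosen after its values were seen. Its level was 9.54, 14.8 and 20.1 FPKM in LPS+CsA, 2.62, 0.637 and 3.64 FPKM in LPS, 1.70, 21.8 and 11.9 FPKM in CsA, and 7.28, 5.44 and 9.65 FPKM in Control animals. The difference of CsA against Control was 0.16. The other locus with the same annotation, ENSOCUG00000027549, differed by -0.61, and IGHM, the constant region of IgM, by -0.54, so no contrast between the classes follows. CsA 2 and CsA 3 were above all Control libraries and CsA 1 was below them. JCHAIN, which joins both classes, was 38.2, 17.1 and 10.2 FPKM in CsA 2, CsA 3 and CsA 1.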
